A study of Mus musculus with 6 samples.

Results

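Transcripts of the B cell lineage were measured in RNA from sorted regulatory T cells (Tregs), as 36 listed genes of B cell antigen receptors, surface proteins, signalling proteins and transcription factors, without MHC class II genes and variable segments. The genes were found by symbol, and their Ensembl IDs by GENCODE M21. Of the 36, 35 had counts and all 35 entered the test of 13626 genes, out of 37187 in the count table. Ighd, the constant region of IgD, was not analysed here. The 6 libraries came from tumour-draining lymph nodes of mice that had received 300000 B16.F10 melanoma cells under the skin 14 days earlier. In 3 libraries (WT, replicates 1 to 3) the mice were C57BL6 and in 3 (KO, replicates 4 to 6) they were il33-/- on the C57BL6 background, so both groups carried the tumour. The gene was absent from every cell of the KO mice rather than from Tregs alone, and the labels name neither the age and sex of the mice nor whether each library came from a separate animal, so that a p-value here covers the spread over libraries, which may be technical. The sort took CD4+CD25+GITR+ cells, a gate that B cells do not share, and the labels add Foxp3 to the cell type.

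B cells recognise antigen through membrane immunoglobulin held in a complex with the CD79 chains, whose tyrosines are phosphorylated by LYN and BLK and bound by SYK. SYK, BTK, the adaptor BLNK and the phospholipase PLCG2 pass the signal on, while CD22, CD72 and SIGLECG restrain it. EBF1 and PAX5 set the identity of the lineage, and the ETS factors PU.1 (Spi1) and SPIB and the octamer coactivator OBF-1 (Pou2af1) act with them. A lymph node holds large follicles of resting B cells beside its T cell zone.

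The libraries held 18071928 to 21165063 counts. Markers of the labelled cell type were present, with Foxp3 at 719 to 803 CPM (counts scaled by library size) in WT and 789.7 to 857 CPM in KO, and 19 T lineage genes summed to 8381 to 8913 CPM in WT and 8937 to 9508 CPM in KO. WT replicate 2 stood apart from the other WT libraries in nearly every B cell gene, so counts of calls are given with and without it. Because the values of these same genes singled it out, calls without it are a description and no added support. The geometric mean of 8 B cell reference genes (Cd79a, Cd79b, Ms4a1, Cd22, Fcer2a, Pax5, Fcrla and Fcrl1) was 129.5, 40.1 and 98.9 CPM in WT replicates 1, 2 and 3 and 23.7, 33.0 and 18.9 CPM in KO replicates 4, 5 and 6. The range from the lowest to the highest library was 6.85-fold, WT replicate 2 lay nearer to the KO libraries than to the other WT libraries, and the groups did not overlap.

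The promoters of 3 of these genes are shown because they belong to the reference genes or the transcription factors and held a motif of a B cell factor. They are the 250 bases before the RefSeq start site on GRCm38.p6, 5′ to 3′ on the strand of the gene, with motif matches in capitals. The Cd22 promoter (chr7:30879029-30879278, minus strand) and the Spib promoter (chr7:44532072-44532321, minus strand) each held the EBF1 letters CCCNNGGG, with overlapping matches in Spib, and the Fcrl1 promoter (chr3:87376137-87376386, plus strand) held the PU.1 letters GAGGAAGT on the opposite strand.
Cd22: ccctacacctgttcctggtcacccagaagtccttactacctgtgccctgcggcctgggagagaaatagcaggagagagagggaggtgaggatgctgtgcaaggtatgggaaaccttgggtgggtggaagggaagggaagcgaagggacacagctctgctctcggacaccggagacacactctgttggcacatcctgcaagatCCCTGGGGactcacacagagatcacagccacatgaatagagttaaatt
Spib: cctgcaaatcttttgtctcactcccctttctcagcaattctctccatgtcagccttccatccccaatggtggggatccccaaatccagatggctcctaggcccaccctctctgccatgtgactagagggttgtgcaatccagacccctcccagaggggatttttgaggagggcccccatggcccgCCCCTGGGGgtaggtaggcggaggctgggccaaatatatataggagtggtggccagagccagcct
Fcrl1: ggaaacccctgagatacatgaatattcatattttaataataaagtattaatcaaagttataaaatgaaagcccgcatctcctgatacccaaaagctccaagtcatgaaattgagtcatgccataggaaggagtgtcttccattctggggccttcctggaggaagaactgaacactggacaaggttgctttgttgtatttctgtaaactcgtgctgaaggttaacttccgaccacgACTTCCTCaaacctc

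RefSeq promoters (250 bases before to 50 after the start) were found for 26 of the 36 genes, 35 windows in all. On both strands, the EBF1 letters were in 3 of the 35 windows (Bank1, Cd22 and Spib), or 8.57%, against 13.7% of 32851 promoters. The octamer ATGCAAAT was in 2 windows (Blnk and Vpreb3), or 5.71%, against 1.74%, and the PU.1 letters were in 2 (Cd72 and Fcrl1), or 5.71%, against 3.2%. A match is a description of the letters, and with so few windows no difference from all promoters was shown.

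Nearly all of the B cell genes had lower values in KO, but with all 6 libraries few passed the test, and the spread within WT was wide. All 35 log2 fold changes (KO minus WT on the log2 scale, here also called log2 differences) were below 0, and 31 were at or below -1, as were 2.54% of all genes, and their median was -1.86 (quartiles -1.99 and -1.53) against 0.00 for all 13626 genes. By the quasi-likelihood test of edgeR, at a Benjamini-Hochberg adjusted p under 0.05, 2 genes passed, both lower (Vpreb3 and Tnfrsf13b), and 33 had an unadjusted p under 0.05. Of all genes tested 6.5% were called, 2.83% lower and 3.68% higher. For 30 of the 35 genes every WT library lay above every KO library, against 12.6% of all genes. The median standard error of the log2 fold change was 0.548 for the 35 genes and 0.0994 for all genes. In bulk RNA, fewer B cells in a sort and less RNA per B cell cannot be told apart.

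Without WT replicate 2, 31 of the 35 genes were called lower by edgeR, against 5.26% of all genes (4.47% were called higher, 9.73% in all), and the median log2 fold change of the 35 was -2.20 with a median standard error of 0.259. Ms4a1, Cd22, Pax5 and Mef2c did not pass there, with adjusted p-values from 0.0569 to 0.0636 in the edgeR test. Leaving out a library for its low values in most of these genes by itself widens their gap to KO. It also narrows their spread within WT, so these calls cannot serve as a separate test. With all 6 libraries DESeq2 called 30 of the 35 lower, and 4.11% of all genes lower, 3.63% higher and 7.75% in all. On the same libraries limma-voom called 1, Tnfrsf13b, and 2.52% of all genes lower, 3.52% higher and 6.03% in all. In edgeR 0 of the 35 passed without WT replicate 3, and 1 without any of WT replicate 1 and KO replicates 4, 5 and 6, namely Tnfrsf13b. The number of B cell genes called therefore turned on WT replicate 2 and on the tool, while the direction of all 35 was the same in each of these fits.

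**Figure D1:**
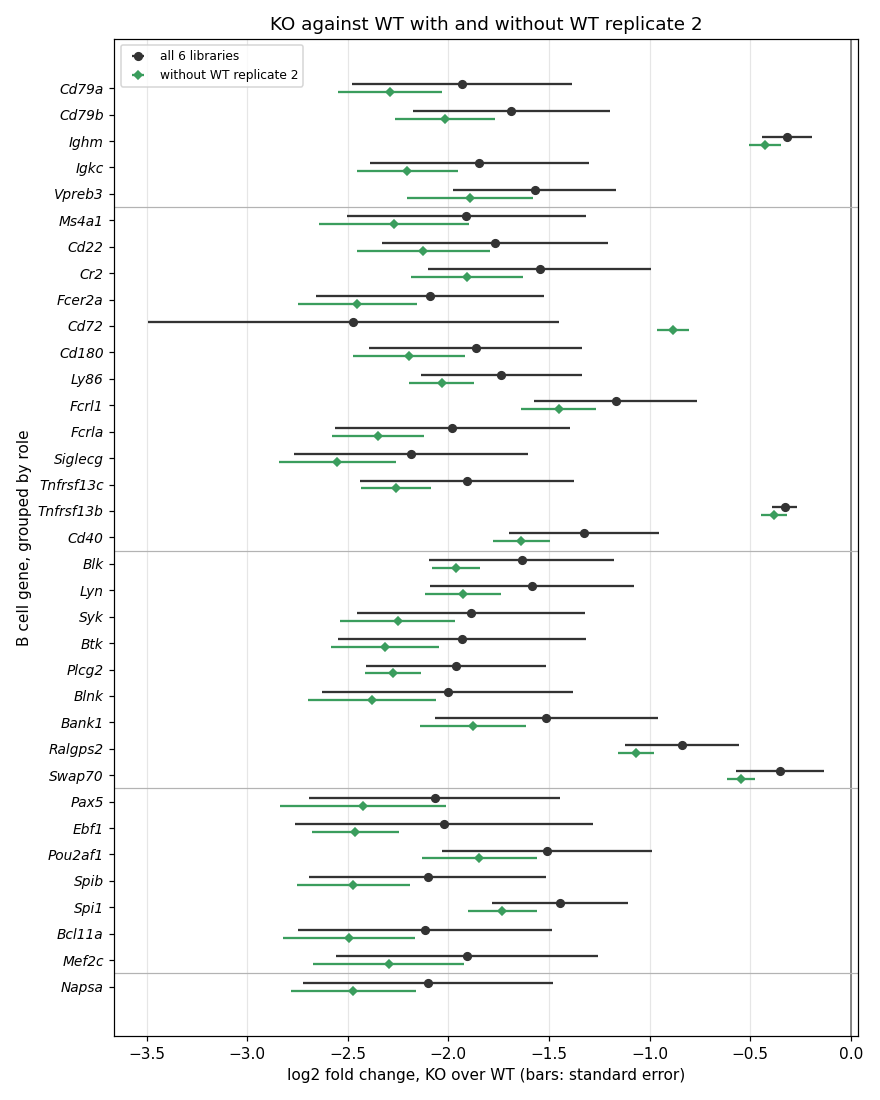
Log2 fold change of KO over WT (x axis) for the 35 tested B cell genes (y axis, grouped by role), with all 6 libraries (circles) and without WT replicate 2 (diamonds); bars are standard errors of the edgeR fit. All points lie below 0, most standard errors are shorter without WT replicate 2, and Cd72 moves from -2.47 to -0.88.

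The antigen receptor genes Ighm and Igkc led in level. On the deposited FPKM scale, which allows levels of different genes to be compared, Ighm was at 851 ± 129.8 in WT and 682 ± 65.4 in KO (SD, n = 3 each), and Igkc at 621 ± 322 and 173 ± 42.0. Cd79a, a signalling chain of the receptor, had 206, 60.7 and 156 CPM in WT replicates 1, 2 and 3 and 35.4, 46.4 and 29.0 CPM in KO replicates 4, 5 and 6, a log2 difference of -1.93 (standard error 0.55, with an adjusted p of 0.152 in edgeR). Its partner Cd79b had 193, 62.4 and 133 CPM in WT and 37.0, 48.7 and 35.0 CPM in KO. The kappa light chain gene Igkc had 290.0, 86.0 and 228 CPM in WT and 51.6, 71.2 and 45.4 CPM in KO. In these 3 genes the groups did not overlap, WT replicate 2 was the lowest WT library and KO replicate 5 the highest KO library.

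Vpreb3, which binds immunoglobulin chains during their assembly in B cells, was low and fell. It had 5.08, 1.56 and 2.82 CPM in WT and 0.953, 1.33 and 0.904 CPM in KO, a log2 difference of -1.57 (standard error 0.41, with an adjusted p of 0.0438 in edgeR). The call was lost on leaving out any 1 library other than WT replicate 2, with edgeR adjusted p-values from 0.0956 to 0.168, and in limma-voom.

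Ighm, the constant region of IgM, kept most of its level where the other receptor genes were low. It had 1447, 1061 and 1302 CPM in WT and 924, 1118 and 1017 CPM in KO, and the groups overlapped, since KO replicate 5 lay above WT replicate 2. Its log2 difference was -0.32 (standard error 0.12, with an adjusted p of 0.202 in edgeR), and -0.43 (SE 0.08, adjusted p = 0.00309) without WT replicate 2. The ratio of Ighm to Igkc on the FPKM scale was 1.08, 2.68 and 1.24 in WT replicates 1, 2 and 3 and 3.89, 3.41 and 4.87 in KO replicates 4, 5 and 6, higher in every KO library.

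**Figure D2:**
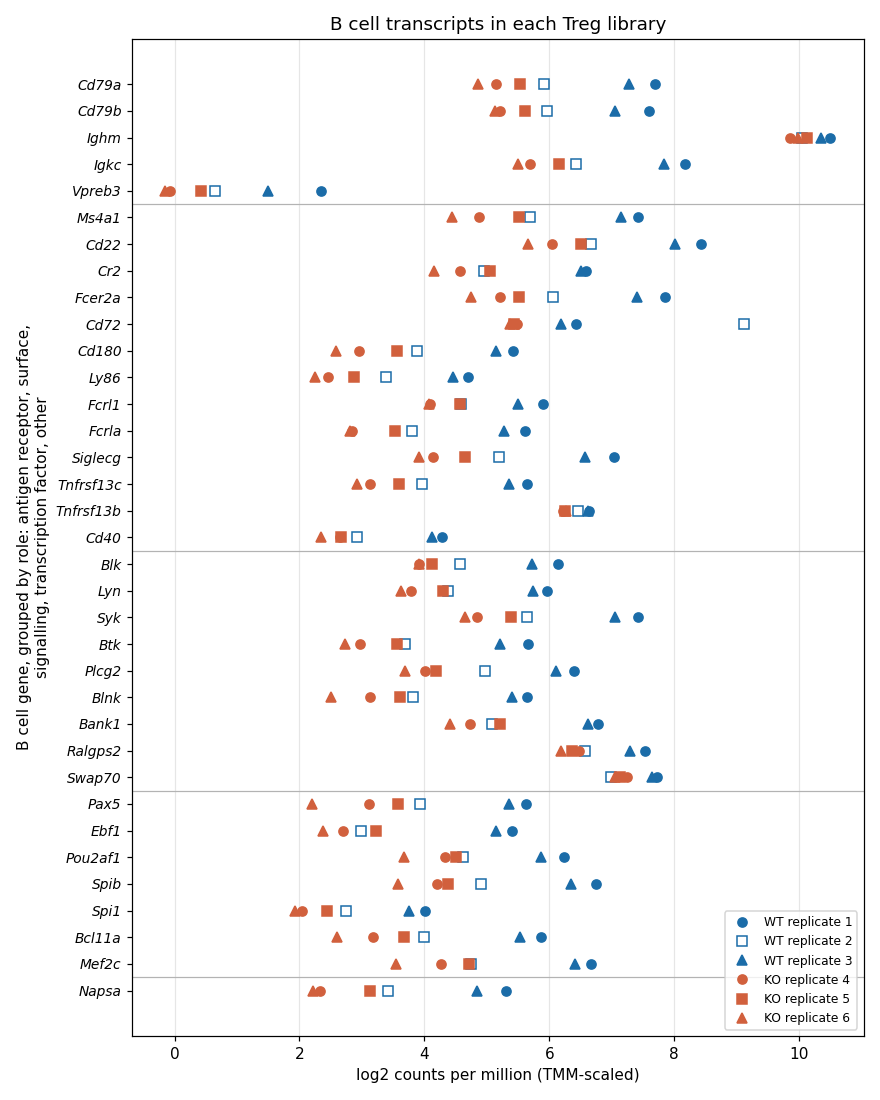
Log2 CPM (x axis) of the 35 tested B cell genes (y axis, grouped by role) in each library, with WT in blue, KO in orange and WT replicate 2 as open squares. WT replicates 1 and 3 lie to the right of the KO libraries in every row, and WT replicate 2 lies near KO replicate 5 in most rows but far above all libraries for Cd72.

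Of the 13 surface genes, 12 had groups that did not overlap, lower in KO, against 12.6% of all genes. By edgeR 1, Tnfrsf13b, passed with all libraries (12 at an unadjusted p under 0.05, 10 called by DESeq2 and 1 by limma-voom). Without WT replicate 2, 11 passed by edgeR. Of all genes, edgeR called 2.83% lower with all libraries and 5.26% without WT replicate 2. Ms4a1, which encodes CD20, had 171, 51.5 and 142 CPM in WT and 29.4, 45.9 and 21.8 CPM in KO. Cd22, an inhibitory lectin of the receptor, had 347, 102 and 258 CPM in WT and 65.8, 91.5 and 50.4 CPM in KO. Fcer2a, the low-affinity IgE receptor CD23 of follicular B cells, had 231, 66.6 and 169 CPM in WT and 37.1, 45.7 and 26.8 CPM in KO, a log2 difference of -2.09 (standard error 0.57, with an adjusted p of 0.140 in edgeR). In all 3 genes WT replicate 2 lay between the KO libraries and WT replicate 3.

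Siglecg, a sialic acid lectin that dampens the receptor, had 131, 36.7 and 95.0 CPM in WT and 17.6, 25.1 and 14.99 CPM in KO. Fcrla, an intracellular Fc receptor-like protein, had 48.9, 13.9 and 38.6 CPM in WT and 7.20, 11.5 and 6.997 CPM in KO. Tnfrsf13c, the BAFF receptor that keeps mature B cells alive, had 49.7, 15.6 and 41.0 CPM in WT and 8.72, 12.1 and 7.57 CPM in KO. These 3 had the same order of libraries, with WT replicate 1 highest and KO replicate 6 lowest. Cd180, a Toll-like protein, had 42.6, 14.8 and 35.4 CPM in WT and 7.72, 11.8 and 5.997 CPM in KO, and Ly86, which encodes its partner MD-1, had 26.1, 10.4 and 22.0 CPM in WT and 5.48, 7.34 and 4.76 CPM in KO. Both parts of this complex showed that order as well.

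Cr2, the complement receptor CD21, had 96.7, 31.0 and 90.9 CPM in WT and 23.9, 33.1 and 17.9 CPM in KO, and it was the surface gene whose groups overlapped. Cd40, the receptor for T cell help, had 19.4, 7.54 and 17.3 CPM in WT and 6.24, 6.34 and 5.09 CPM in KO. Fcrl1, an activating Fc receptor-like protein, had 59.8, 24.0 and 45.0 CPM in WT and 17.0, 23.6 and 16.8 CPM in KO, a log2 difference of -1.17 (standard error 0.40, with an adjusted p of 0.205 in edgeR). The groups of Fcrl1 met closely, with WT replicate 2 only just above KO replicate 5.

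Tnfrsf13b, which encodes the BAFF and APRIL receptor TACI, fell by a small and even amount. It had 99.96, 87.9 and 98.3 CPM in WT and 74.4, 76.3 and 77.1 CPM in KO, a log2 difference of -0.33 (standard error 0.06, with an adjusted p of 0.00881 in edgeR). The adjusted p was 0.000643 in DESeq2 and 0.0116 in limma-voom, but 0.0539 in edgeR once WT replicate 3 was left out. Its sibling receptor Tnfrsf13c had a log2 difference of -1.91 (standard error 0.53, with an adjusted p of 0.145 in edgeR), a larger difference with a wider spread.

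Cd72, an inhibitory receptor of B cells, did not follow the others in WT replicate 2. It had 86.1, 558 and 73.0 CPM in WT and 44.9, 43.2 and 41.2 CPM in KO. WT replicate 2, the WT library lowest in the other 34 genes, was here 7.02-fold above the mean of WT replicates 1 and 3. With all libraries the log2 difference was -2.47 (standard error 1.02, with an adjusted p of 0.277 in edgeR), and without WT replicate 2 it was -0.88 (SE 0.08, adjusted p = 3.17e-06). Cd72 (chromosome 4, 43446462 to 43454628, minus strand of GRCm38) shares 1423 bases, 41.58% of its exon bases, with Tesk1 on the opposite strand, and the sources used here do not say whether the counting used strand. Tesk1 had 30.3, 25.2 and 27.8 CPM in WT and 27.7, 23.0 and 24.2 CPM in KO, with no high value in WT replicate 2. Cd72 was 1 of 3 genes at 10 CPM or more in WT replicate 2 and at least 4-fold above every other library, beside Sned1 and Gm13340; WT replicate 3 had 1 such gene and the other 4 libraries had none.

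Of the 9 signalling genes, 7 had groups that did not overlap, lower in KO, against 12.6% of all genes. By edgeR 0 passed with all libraries (8 at an unadjusted p under 0.05, 7 called by DESeq2 and 0 by limma-voom). Without WT replicate 2, 9 passed by edgeR, against 5.26% of all genes called lower there. Blk, a B cell Src kinase, had 70.5, 23.9 and 52.8 CPM in WT and 15.1, 17.3 and 14.99 CPM in KO. Lyn, the Src kinase that both starts and restrains the signal, had 62.7, 20.9 and 53.5 CPM in WT and 13.8, 19.6 and 12.4 CPM in KO. Syk, whose part in T cells is largely taken by Zap70, had 172, 49.8 and 132 CPM in WT and 28.7, 42.0 and 25.1 CPM in KO. Btk, a Tec kinase, had 50.4, 12.9 and 37.0 CPM in WT and 7.86, 11.8 and 6.66 CPM in KO. All 4 kinases had the same order of libraries, from WT replicate 1 at the top through replicates 3, 2, 5 and 4 to KO replicate 6.

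Plcg2, the phospholipase of this pathway, had 83.8, 31.4 and 68.6 CPM in WT and 16.1, 18.2 and 12.9 CPM in KO. The adaptor Blnk had 50.1, 14.1 and 42.5 CPM in WT and 8.72, 12.2 and 5.66 CPM in KO. The scaffold Bank1 had 109.6, 34.0 and 98.6 CPM in WT and 26.5, 37.2 and 21.2 CPM in KO, and its groups overlapped because KO replicate 5 lay above WT replicate 2.

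Ralgps2 and Swap70 differed less between the libraries. Ralgps2, an exchange factor for Ral GTPases, had 185, 95.6 and 157 CPM in WT and 89.3, 82.2 and 73.2 CPM in KO, a log2 difference of -0.84 (standard error 0.28, with an adjusted p of 0.195 in edgeR). Swap70, a regulator of Rac and actin, had 213, 128 and 201 CPM in WT and 151, 141 and 132 CPM in KO, a log2 difference of -0.35 (standard error 0.22, with an adjusted p of 0.448 in edgeR). WT replicate 2 was the lowest of all 6 libraries for Swap70, and without WT replicates 1 and 3 its log2 fold change was 0.15.

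Of the 7 transcription factor genes, 6 had groups that did not overlap, lower in KO, against 12.6% of all genes. By edgeR 0 passed with all libraries (7 at an unadjusted p under 0.05, 7 called by DESeq2 and 0 by limma-voom). Without WT replicate 2, 5 passed by edgeR, against 5.26% of all genes called lower there. Pax5 had 49.6, 15.3 and 40.7 CPM in WT and 8.67, 11.9 and 4.62 CPM in KO, a log2 difference of -2.07 (standard error 0.62, with an adjusted p of 0.166 in edgeR). Ebf1 had 42.1, 7.95 and 35.4 CPM in WT and 6.48, 9.39 and 5.19 CPM in KO. Ebf1 was the factor whose groups overlapped, with WT replicate 2 at 0.205 of the mean of WT replicates 1 and 3, the lowest such share of the 35 genes. Pou2af1 had 75.2, 24.6 and 58.1 CPM in WT and 20.1, 22.6 and 12.8 CPM in KO.

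Of the ETS factors, Spib had 107, 29.9 and 81.8 CPM in WT and 18.3, 20.8 and 11.9 CPM in KO. Spi1, which also drives myeloid cells, was lower in level, with 16.1, 6.71 and 13.5 CPM in WT and 4.10, 5.43 and 3.81 CPM in KO, a log2 difference of -1.45 (standard error 0.34, with an adjusted p of 0.0583 in edgeR). The zinc finger factor Bcl11a had 58.7, 16.0 and 46.3 CPM in WT and 9.06, 12.8 and 6.04 CPM in KO, and Mef2c, a MADS-box factor, had 102, 26.8 and 85.4 CPM in WT and 19.2, 26.2 and 11.7 CPM in KO. In all 4 WT replicate 2 lay above KO replicate 5 and below the other WT libraries. Napsa, an aspartic protease gene, had 39.7, 10.7 and 28.7 CPM in WT and 5.05, 8.77 and 4.66 CPM in KO, in the same order.

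The differences between libraries of 1 group ran through the genes together, in comparisons that do not involve WT against KO. WT replicate 2 was the lowest WT library for 34 of the 35 genes, and its CPM was a median of 0.338 of the mean of WT replicates 1 and 3, against 0.999 for all genes. In KO, replicate 5 was highest for 31 genes and replicate 6 lowest for 33, and the ratio of replicate 5 to replicate 6 had a median of 1.65, against 1.001 for all genes. Pax5 had the largest such ratio, 2.58, while Tnfrsf13b had 0.99. How often these libraries were lowest or highest over all genes was not counted. The counts of 34, 31 and 33 are not independent, since the genes moved together. The full order WT replicate 1, 3, 2, then KO replicate 5, 4, 6 held in 27 of the 35 genes and in 1.23% of all genes. It is the commonest order of these same genes, so its lower share over all genes is no added support. Unlike the comparisons above, it also sets every WT library above every KO library. The genes outside that order were Ighm, Cr2, Cd72, Tnfrsf13b, Bank1, Ralgps2, Swap70 and Ebf1.

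**Figure D3:**
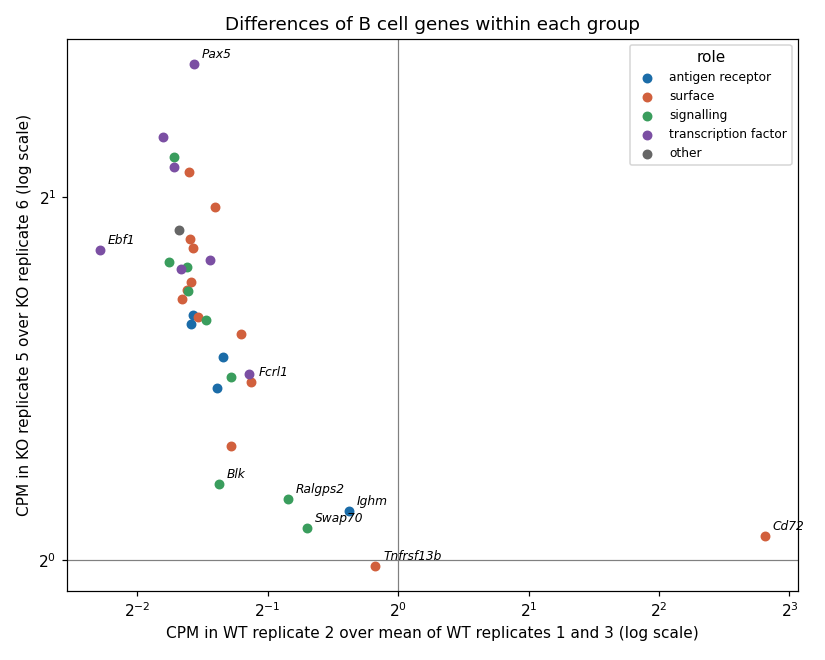
CPM of WT replicate 2 over the mean of WT replicates 1 and 3 (x axis, log scale) and CPM of KO replicate 5 over KO replicate 6 (y axis, log scale) for the 35 tested B cell genes, coloured by role. Most genes lie at upper left, around 0.338 and 1.65, whereas Ralgps2, Swap70, Ighm and Tnfrsf13b lie nearer to 1 on both axes and Cd72 lies at 7.02 on the x axis.

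Each gene was then set against the 8 reference genes (itself left out), which asks whether it kept a fixed ratio to B cell signal while that signal varied 6.85-fold. For 23 of the 35 genes the highest and lowest ratio over the 6 libraries lay within 1.5-fold, and for 7 within 1.21-fold. The steadiest was Syk, with ratios from 1.21 to 1.34 (1.107-fold), followed by Cd22 (1.109-fold), Igkc (1.12-fold), Tnfrsf13c (1.13-fold), Cd79a (1.15-fold), Cd180 (1.16-fold) and Btk (1.21-fold). These 7 span the receptor, the surface and the kinases. Cd22 and Cd79a are reference genes themselves, and all 8 reference genes are counted among the 35. The reference was chosen with earlier results of these data known, so part of this steadiness is built in. The share of all genes within 1.5-fold was not computed, and the counts are a description.

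At the other end, 6 genes had ratios that varied more than 2-fold. Ighm had 11.2, 26.4 and 13.2 times the reference in WT replicates 1, 2 and 3 and 39.0, 33.9 and 53.8 times in KO replicates 4, 5 and 6. Tnfrsf13b had ratios of 0.772, 2.19 and 0.994 in WT and 3.14, 2.31 and 4.08 in KO, and Swap70 had 1.64, 3.18 and 2.03 in WT and 6.37, 4.27 and 7.002 in KO. Ralgps2 varied 2.70-fold and Fcrl1 2.15-fold in the same direction, and Cd72 varied 20.9-fold, with its highest ratio, 13.9, in WT replicate 2 and 2.18 or less in the other 5 libraries. In the first 5 of these genes WT replicate 2, the WT library with the least B cell signal, had the highest ratio of the WT libraries.

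Altogether 11 genes had a higher ratio in every KO library, against 83.9% of all genes tested, and 4 had a lower ratio in every KO library, against 0.213% of all genes. The reference itself was lower in every KO library, so a gene with an even level has a higher ratio there. The shares of all genes are therefore set by the reference, and no excess among the B cell genes can be read from them. The 11 were Ighm, Vpreb3, Cr2, Fcrl1, Tnfrsf13b, Cd40, Lyn, Bank1, Ralgps2, Swap70 and Pou2af1, with log2 differences of the mean ratio (KO minus WT) from 0.24 in Lyn to 1.40 in Ighm. The 4 were Fcer2a (-0.28), Siglecg (-0.33), Pax5 (-0.34) and Bcl11a (-0.28). Each of these 15 reached 0.1 in the two-sided exact permutation test, the smallest p that 3 against 3 libraries allow, so none can pass a threshold of 0.05. The remaining 20 had ratios that overlapped between the groups. With all 21 genes outside the myeloid list as reference, 3 genes were higher and 15 lower in every KO library, so small shifts such as that of Lyn depended on the reference genes, and the log2 difference of Tnfrsf13b was then 1.15.

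**Figure D4:**
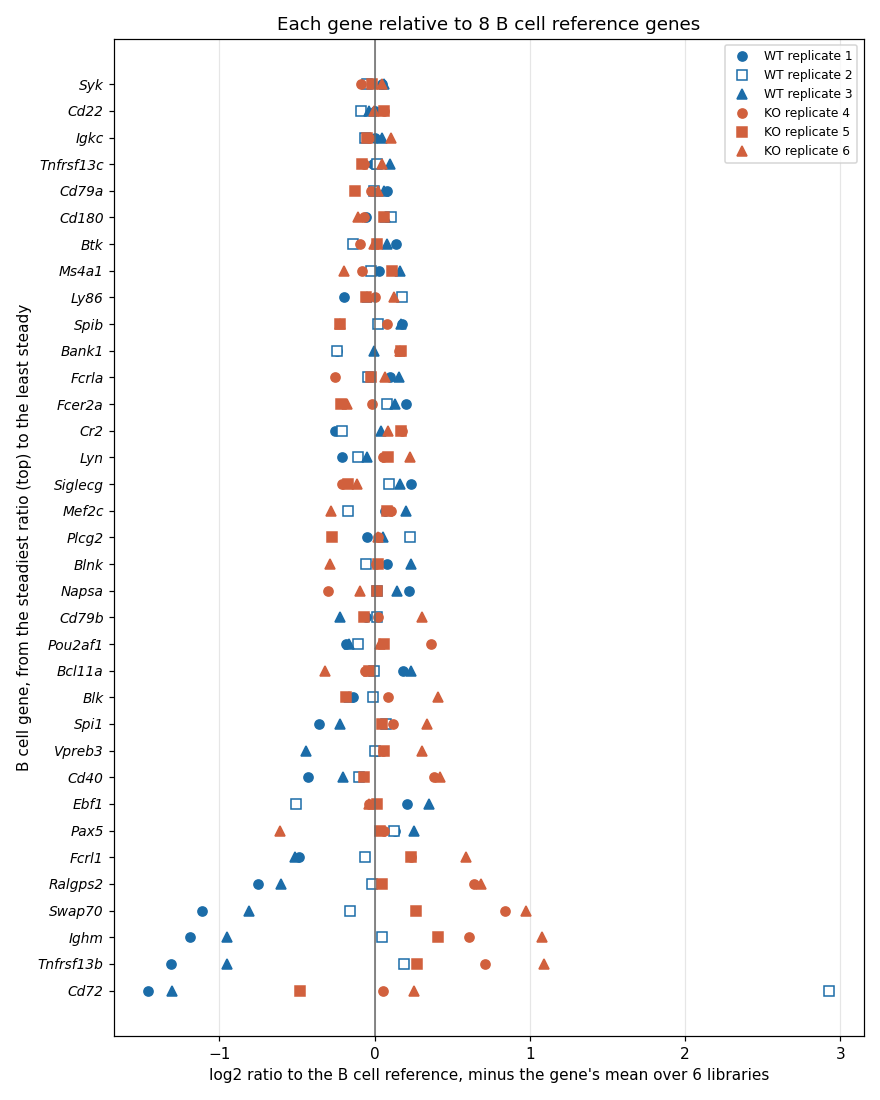
Log2 ratio of each B cell gene to the geometric mean of the 8 reference genes, minus the mean of that gene over the 6 libraries (x axis), with genes ordered from the steadiest at the top to the least steady at the bottom; WT in blue, KO in orange, WT replicate 2 as open squares. Syk and Cd22 span 1.107-fold and 1.109-fold, while Ralgps2, Swap70, Ighm and Tnfrsf13b run from WT replicate 1 at the left to KO replicate 6 at the right.

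On the deposited FPKM scale the order of levels therefore differed between the groups for the genes of the third place and below. In WT, Ighm and Igkc were followed by Cd79a at 96.2 ± 50.4 and Cd79b at 90.2 ± 45.5 (SD, n = 3). Within libraries Cd79a was the higher in WT replicates 1 and 3 and Cd79b in WT replicate 2. In KO the third gene was Swap70 at 34.9 ± 2.41, followed by Cd79b at 28.0 ± 5.20, Tnfrsf13b at 26.6 ± 0.418 and Cd79a at 25.2 ± 6.06. Cd79b lay above Cd79a within each KO library. Tnfrsf13b lay below both in KO replicate 5 and above both in KO replicates 4 and 6. Ebf1 and Bcl11a were the lowest in both groups, at 2.91 ± 1.85 and 3.05 ± 1.66 in WT and 0.716 ± 0.221 and 0.703 ± 0.258 in KO.

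Other B cell genes, many of which T cells also express, differed less as lists. Of 18 other surface genes 2 passed by edgeR, both lower: Cd93 fell by 1.70 (SE 0.37) and Clec2d fell by 0.30 (SE 0.07) on the log2 scale; without WT replicate 2, 10 passed, all lower. Of 20 other receptor signalling genes 3 passed, all lower: the phosphatase genes Ptpn6 and Inpp5d, which fell by 0.36 (SE 0.08) and 0.19 (SE 0.05), and Prkcb, which fell by 0.54 (SE 0.12). Without WT replicate 2, 9 of these passed. Of 15 other transcription factor genes Ikzf3 and Tcf4 fell by 0.35 (SE 0.07) and 0.92 (SE 0.19), and Foxo1 rose by 0.18 (SE 0.05). Without WT replicate 2, 7 of the 15 passed, all lower, and Foxo1 did not (adjusted p = 0.102 in edgeR).

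The median log2 fold changes of these 3 lists were -0.51, -0.18 and -0.23, against -1.86 for the 35 genes. Iglc2, a lambda light chain gene, had 57.0, 13.7 and 39.9 CPM in WT and 8.01, 10.9 and 5.33 CPM in KO, the same order as Igkc. The IgG gene Ighg2b had 1.95, 0.676 and 1.99 CPM in WT and 2.76, 4.34 and 6.47 CPM in KO, higher in every KO library (log2 difference 1.55, standard error 0.42, with an adjusted p of 0.0711 in edgeR). Of the 6 other immunoglobulin genes tested (constant regions and the joining chain gene Jchain), 0 passed by edgeR (2 at an unadjusted p under 0.05; 2 called by DESeq2 and 0 by limma-voom). Without WT replicate 2, 2 of the 6 passed, Ighg2b higher and Iglc2 lower (adjusted p = 0.0414 and 0.0239 in edgeR). Igha did not enter the test with all libraries at the main filter. In the fit without WT replicate 2 it passed as higher (log2 difference 2.85, adjusted p = 0.0478 in edgeR). Its counts were low, at 2, 4 and 1 in WT and 18, 15 and 4 in KO.

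Genes of other B cell stages were called in both directions, where 6.5% of all genes were called. Of 8 plasma cell genes Sdc1 and Txndc5 passed, both lower, with log2 fold changes of -0.96 (SE 0.18) and -0.30 (SE 0.07), and 3 of the 8 passed without WT replicate 2, all lower. Of 7 germinal centre genes Fas passed, higher (0.29, SE 0.07), and without WT replicate 2 Fas passed as higher and Bcl6 as lower. Of 8 genes of early B cells 2 were tested and Cd93 passed with and without WT replicate 2, while Rag1 had 3 counts in WT replicate 2, 2 in KO replicate 5 and 0 elsewhere, and Rag2 had 0 counts in every library.

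Markers of other cells were examined because 14 of the 35 genes are also known in myeloid or dendritic cells. Those 14 had a median log2 fold change of -1.92, and by edgeR 0 passed with all libraries (13 at an unadjusted p under 0.05; 13 called by DESeq2 and 0 by limma-voom) and 13 without WT replicate 2. The 10 monocyte and macrophage genes tested summed to 373 to 401 CPM in WT and 399.9 to 434 CPM in KO, most of it Ctss, and Cd68 passed, higher; without WT replicate 2 Itgam passed as well, lower. Among them Csf1r was at 1.91 to 4.04 CPM and Cd14 had 5, 4 and 4 counts in WT replicate 1 and KO replicates 4 and 6 and 0 in the others.

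Dendritic cell genes differed from one another. The 7 tested summed to 239 to 260.3 CPM in WT and 250.3 to 265 CPM in KO, but Ccr7, which T cells also express, made up 213 to 219 CPM of the WT sums and 226 to 245 CPM of the KO sums. Ccl22, a chemokine of mature dendritic cells, passed, lower, with 6.74, 4.06 and 6.97 CPM in WT and 1.91, 3.14 and 2.57 CPM in KO. Flt3, a growth factor receptor of dendritic cells, had 4.03, 1.82 and 4.37 CPM in WT and 1.19, 1.43 and 0.381 CPM in KO (log2 difference -1.76, standard error 0.46, with an adjusted p of 0.0545 in edgeR), and it passed without WT replicate 2 (0.00244). Fscn1, an actin-bundling protein of mature dendritic cells, had 23.6, 15.7 and 25.9 CPM in WT and 9.53, 13.4 and 6.43 CPM in KO, and did not pass in either fit. In these 3 genes, chosen after their values were seen, the groups did not overlap and WT replicate 2 was the lowest WT library, as with most of the B cell genes. The other genes of the list went the other way, with log2 fold changes of 0.09 in Itgax, 0.18 in Zbtb46, 0.28 in Xcr1 and 0.12 in Ccr7. None of those passed, and the median of the 7 was 0.09. WT replicate 2 was the lowest WT library in all 7 dendritic cell genes tested, including Itgax (0.572 CPM against 2.04 and 1.72 CPM), whose groups overlapped. The part of dendritic cell RNA in the B cell gene differences was not tested.

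The 7 plasmacytoid genes tested summed to 241 to 264 CPM in WT and 209.9 to 236 CPM in KO, most of it Pacsin1 and Bst2. Of the 7, Tcf4 and Siglech passed, lower, with Siglech at 0.810 to 2.76 CPM. Without WT replicate 2 Siglech did not pass (adjusted p = 0.0685 in edgeR), while Tcf4 and Ly6d did, both lower. Both are also on the lists of other B cell genes, Tcf4 as a transcription factor and Ly6d as a surface gene. Ly6d had 58.2, 16.8 and 49.5 CPM in WT and 12.9, 18.2 and 13.9 CPM in KO. Of 9 cytotoxic and NK cell genes tested Klrk1 passed, lower, with sums of 64.2 to 72.2 CPM in WT and 49.4 to 61.2 CPM in KO, and without WT replicate 2 Klrk1 and Gzma passed, both lower. Of 6 stromal genes Pecam1 passed, higher, with sums of 227 to 248 CPM in WT and 264 to 274 CPM in KO. Pecam1 alone made up 206 to 226 CPM of the WT sums and 242 to 253 CPM of the KO sums. It did not pass without WT replicate 2 (adjusted p = 0.103 in edgeR). The 2 erythroid genes and 1 neutrophil gene tested had 0 calls by edgeR (0 at an unadjusted p under 0.05; 0 by DESeq2 and limma-voom).

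Gene by gene, the median share of WT replicate 2 in the mean of WT replicates 1 and 3 was 0.634 for the dendritic, 0.843 for the monocyte and macrophage, 0.917 for the cytotoxic, 0.948 for the stromal and 1.03 for the plasmacytoid list, against 0.338 for the B cell genes. It was 1.06 for the T lineage and 1.11 for the Treg list. Of 19 T lineage genes Cd28 and Bcl11b passed, both higher, with and without WT replicate 2. Of 10 Treg genes Ctla4, Nrp1 and Ikzf4 passed, all higher, and 7 passed without WT replicate 2, all higher. The part of B cell RNA in these differences was not tested.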

How the data were processed

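Messenger RNA was measured in 3 WT and 3 KO libraries. Raw counts by Ensembl ID were deposited by the authors, with normalized counts (a signal: raw counts divided by 1 factor per library) and FPKM per gene symbol. The submitters' processing notes name bcl2fastq, STAR 2.4.2a, DESeq2 and GRCm38; these sources name no counting tool and no strand setting. Symbols came from GENCODE M21, which matched 35412 of 37187 IDs.

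The count test was edgeR 4.0.16 under R 4.3.3 (filterByExpr, TMM, robust quasi-likelihood, two-sided, Benjamini-Hochberg over all genes, threshold 0.05); CPM values are TMM-scaled, and standard errors derive from the F statistic. The fit was tested on simulated counts drawn independently for each gene. These held no shift shared by many genes in a single library, such as that of WT replicate 2. The simulation therefore does not bear on the calls of the B cell genes. Alternatives were DESeq2 1.42.0, limma-voom (3.58.1), other factors, filters and units, and leaving out libraries. Ratios to the reference were taken per library and tested by exact permutation. The members, gene lists and reference genes were chosen with earlier results of these data known. Values in the text cover all 35 tested members; of other lists up to 4 called genes, or 2 values, are named. Total counts limit precision for counting error only. Members whose exons overlap an opposite-strand gene cannot be told apart from it without strand: Cd22, Cd72, Cd180, Lyn, Swap70, Pax5, Bcl11a and Napsa.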

Additional observations from a re-analysis of the deposited data

How the results depend on the processing

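The median log2 fold change of the B cell genes stayed below 0 in every fit, and 0 of them were called higher in any. With all libraries the number called lower was 30 with DESeq2, 5 with no low-count filter, and 1 each with limma-voom and limma on log2(normalized count + 1), log2(FPKM + 1) and log2(FPKM + 0.1), against 2. Leaving out single libraries gave 0 to 31, the highest without WT replicate 2. Over all genes, 886 were called, and 1645 with no filter, 400 and 390 with the FPKM settings, and 367 to 1364 without single libraries. The cause of these differences between tools was not tested.

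Without WT replicates 1 and 3, chosen after seeing the data, 3 members and 282 genes were called, the median was -0.617 and Swap70 turned to 0.15; that fit takes the spread of the lone WT library from KO. Of the ratios to the reference, 4 to 11 were lower and 11 to 14 higher in every KO library without single libraries. With the called members Vpreb3 and Tnfrsf13b as reference, 3 were higher and 18 lower, and the difference turned to -1.10 for Vpreb3, -0.55 for Cr2, -0.21 for Fcrl1, -0.34 for Cd40, -0.59 for Lyn, -0.50 for Bank1 and -0.53 for Pou2af1. With all members outside the myeloid list, added after seeing the data, 3 were higher and 15 lower, and the difference turned to -0.0093 for Vpreb3, -0.0047 for Cr2 and -0.046 for Lyn. No paired analysis was possible because the groups share no replicate number.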
